A study of Mus musculus with 71 samples.

Results

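The hypothalamus of normal adult mice was set against the hippocampus, striatum and cortex of the same cohort on expression arrays, 4 arrays of hypothalamus against 12 arrays of the other regions, 4 per region, out of 71 arrays in the series. The arrays were chosen by their labels alone: all 16 hold total RNA of GLPfl/fl controls, littermates of mice in which GLP (gene Ehmt1) was deleted by Cre recombinase under the Camk2a promoter. These controls carry the floxed GLP alleles, and the tissue source names give no Cre for them. A second set of 13 control arrays, from G9afl/fl littermates of mice that lost the partner enzyme G9a (gene Ehmt2), held 4 arrays of hypothalamus and 9 of the other regions (3 hippocampus, 4 striatum, 2 cortex), and served as an independent reading of the same contrast. The series design gives an age of 10 to 14 weeks and the extraction protocol 12 weeks. The labels call the arrays of a group biological replicates, and do not say whether the 4 regions of a number came from 1 animal.

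The hypothalamus is a small region at the base of the brain that governs feeding, water balance, temperature, sleep, reproduction and the pituitary gland. It does so largely through small groups of neurons, each making its own secreted peptide: a precursor protein is made, sorted into dense-core granules, cut by convertases and released onto neurons or into blood. Its neurons are mostly GABAergic or use the glutamate transporter VGLUT2 (gene Slc17a6), whereas the excitatory neurons of cortex and hippocampus mainly use VGLUT1 (gene Slc17a7) and those of striatum are GABAergic cells with dopamine receptors.

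The upstream sequences of 4 peptide genes that set hypothalamus apart are shown first, because each is known for its use by a small group of hypothalamic neurons. Each run is the 250 bases before the annotated transcription start, on the gene's own strand, from RefSeq (GRCm38.p6), with TATAAA (the TATA box core) and AGGTCA (the half-site bound by several nuclear receptors) in capitals, both searched on both strands.
Pmch, melanin-concentrating hormone precursor, chr10:88090822-88091071, plus strand: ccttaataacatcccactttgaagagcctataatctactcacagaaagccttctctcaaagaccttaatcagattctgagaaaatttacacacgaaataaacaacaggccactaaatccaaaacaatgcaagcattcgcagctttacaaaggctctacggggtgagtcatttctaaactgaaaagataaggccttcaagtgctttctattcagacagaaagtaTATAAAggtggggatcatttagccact
Hcrt, orexin precursor, chr11:100762932-100763181, minus strand: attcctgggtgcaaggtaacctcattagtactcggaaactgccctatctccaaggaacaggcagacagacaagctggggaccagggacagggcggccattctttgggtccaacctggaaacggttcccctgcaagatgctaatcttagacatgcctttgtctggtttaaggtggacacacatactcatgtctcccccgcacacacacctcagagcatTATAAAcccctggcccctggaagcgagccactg
Oxt, oxytocin precursor, chr2:130575919-130576168, plus strand: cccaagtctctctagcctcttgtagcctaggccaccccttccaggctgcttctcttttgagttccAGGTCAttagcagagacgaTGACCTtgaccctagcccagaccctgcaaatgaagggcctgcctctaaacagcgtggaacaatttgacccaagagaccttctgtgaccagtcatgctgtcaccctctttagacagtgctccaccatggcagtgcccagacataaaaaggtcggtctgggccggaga
Avp, vasopressin precursor, chr2:130582589-130582838, minus strand: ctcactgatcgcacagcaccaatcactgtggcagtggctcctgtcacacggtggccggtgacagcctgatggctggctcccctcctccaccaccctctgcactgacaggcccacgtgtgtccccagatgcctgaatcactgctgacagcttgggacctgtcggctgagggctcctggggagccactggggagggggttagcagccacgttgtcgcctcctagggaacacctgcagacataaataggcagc
Pmch and Hcrt each hold 1 TATAAA, and Oxt holds 2 AGGTCA half-sites in opposite orientation and no TATAAA. Neither motif is in the Avp window. Oxt and Avp are neighbours on chromosome 2 and lie on opposite strands. Of 14 promoters in the table for the 16 peptide genes called higher, 4 (28.6%) hold TATAAA and 3 (21.4%) hold AGGTCA, against 6.26% and 10.1% of 9796 promoters of genes tested and 13.0% and 13.8% of all 27025.

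Values are log2 intensities relative to the array median, so that 0 is the median of an array, and differences are hypothalamus minus the mean of the 3 other group means, with their standard error (SE), unless another comparison is named. "Higher" and "lower" are used of genes with a Benjamini-Hochberg adjusted p under 0.05 in limma. Levels below 0 rest on dim signals, and where the lower group lies there a fold is given as a bound from the array median ("at least"). Hypothalamus stood apart as a whole. Over the genes tested its arrays correlated with each other at 0.978 to 0.99 and with the other regions at 0.848 to 0.918. Arrays of different regions other than hypothalamus correlated at 0.921 to 0.953. Of 12090 genes tested, 4389 (36.3%) were higher and 4822 (39.9%) lower in hypothalamus, or 76.2% in either direction, so a call by itself says little about a gene. In 36.4% of genes all 4 hypothalamus arrays lay on one side of the 12 others. The median difference over all genes was -0.03. A difference of more than 1 on the log2 scale (a 2-fold change) was reached by 952 higher genes (7.87%) and 1560 lower ones (12.9%).

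The RNA of the GLP hypothalamus arrays differed from that of the other arrays. The gap between the 3′ and 5′ control probe sets of β-actin, which widens where RNA is shorter or less fully copied, was 3.18 to 3.69 in hypothalamus against 2.06 to 2.64 in the 12 other arrays, with no overlap. For Gapdh it was 2.00 to 2.75 against 1.69 to 2.25. In the G9a cohort the β-actin gap was 1.95 to 2.70 in hypothalamus against 1.75 to 2.52 elsewhere, and the Gapdh gap 1.63 to 2.05 against 2.07 to 2.75. Of 5429 genes with several tested probe sets, 539 (9.93%) had probe sets called in opposite directions in the GLP contrast. The part of this gap in the results was not tested, and within the GLP cohort it cannot be told apart from region. The G9a values given beside the results come from arrays in which the hypothalamus gap overlapped the other regions for β-actin. For Gapdh it lay below all of them, so there too the Gapdh gap cannot be told apart from region. All GLP controls matched females in their sex-linked genes, whereas the G9a controls were mixed (5 female and 8 male), so the cohorts also differ in sex.

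**Figure D1:**
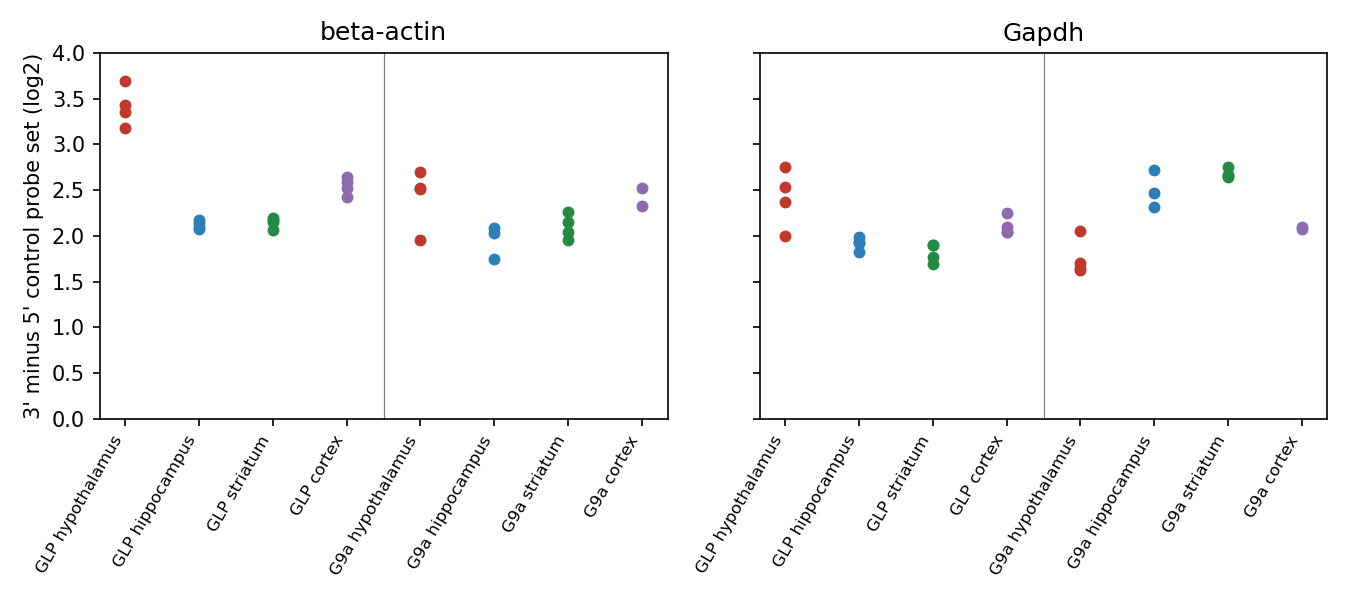
Difference between the 3′ and 5′ control probe sets (log2, vertical axis) of β-actin (left) and Gapdh (right) for each control array (points) by cohort and region. The 4 GLP hypothalamus arrays, at 3.18 to 3.69 for β-actin, lie above all other GLP arrays, while for Gapdh the G9a hypothalamus arrays, at 1.63 to 2.05, lie below the other G9a arrays.

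Peptide precursors are cut into the hormones and transmitters that hypothalamic neurons release. Of 40 listed, 32 had a probe set and 26 were tested; 16 were higher and 6 lower, with a median difference of 0.94, against -0.03 over all genes, and 11 were higher than each of the 3 regions, a class that holds 21.0% of all genes tested. Testing all 32 with no filter on level gave 18 higher and 7 lower. With a stricter filter, at a level of 2, 8 of 17 tested were higher and 6 lower, with a median of 0.45. In the G9a arrays, where 30.0% of genes were higher and 32.6% lower, 21 of 27 tested precursors were higher and 3 lower, and 16 were higher in both cohorts. In these bulk samples, more cells of a type and more RNA per cell cannot be told apart. The precursors Agrp, Kiss1 and Gnrh1 were not analysed here.

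Melanin-concentrating hormone (Pmch), made by lateral hypothalamic neurons that promote feeding and sleep, had the largest difference of any gene among the higher ones. It stood at 9.06, 8.92, 8.50 and 8.66 in the hypothalamus arrays, against -0.75 to 2.62 with a median of 0.84 in the other 12. Its lowest hypothalamus array thus lay far above every other array. The difference was 7.86 (SE 0.39, adjusted p = 5.78e-12), a 232-fold change, and in the G9a arrays it was 8.54. Orexin (Hcrt), from neighbouring neurons that keep animals awake, stood at 4.36, 3.86, 4.35 and 3.85, against -0.31 to 0.94 elsewhere, and the groups did not overlap. Its difference was 3.97 (SE 0.15, adjusted p = 9.37e-14), and 5.43 in the G9a arrays.

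The magnocellular hormones, carried to the posterior pituitary, were higher as well. Oxytocin (Oxt) read 2.44, 3.06, 1.75 and 2.40 in hypothalamus, against -0.28 to 0.28 in the other regions. Its level was at least 5.04-fold higher, with a difference of 2.42 (SE 0.17, adjusted p = 6.05e-10). Vasopressin (Avp) read 2.19, 2.63, 1.81 and 2.47, against -0.42 to 1.11, with a difference of 2.19 (SE 0.18, adjusted p = 3.74e-09). For both genes array 2 was the highest and array 3 the lowest of the 4. The G9a differences were 4.00 for Oxt and 4.11 for Avp.

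Peptides of the neurons that control the anterior pituitary and energy balance were also higher. Thyrotropin-releasing hormone (Trh), which drives the thyroid axis, read 2.23, 2.24, 2.18 and 1.88, against -1.03 to 0.81. Its difference was 2.21 (SE 0.13), and 3.56 in the G9a arrays. The melanocortin precursor Pomc, made by arcuate neurons that suppress feeding, read 2.78, 2.98, 0.60 and 2.84, against -0.44 to 1.05. Array 3 stood low and within the range of the other regions, and the difference was 2.32 (SE 0.33, adjusted p = 4.31e-06). In the G9a hypothalamus Pomc read 3.96 to 4.49 in all 4 arrays. Galanin (Gal), a widely acting inhibitory peptide, differed by 2.44 (SE 0.12), and PACAP (Adcyap1), a peptide that raises cyclic AMP, by 3.13 (SE 0.15). PACAP was high in cortex too: its hypothalamus arrays lay 4.99 above striatum and 1.04 above cortex. Neurotensin (Nts) differed by 1.96 (SE 0.19), the RF-amide precursor Npvf by 1.60 (SE 0.20), neurokinin B (Tac2) by 1.34 (SE 0.17), nociceptin (Pnoc) by 1.02 (SE 0.20) and nucleobindin 2 (Nucb2) by 0.73 (SE 0.14).

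A few peptides known from the hypothalamus were shared with another region. CART (Cartpt), a satiety peptide, read 1.46 to 2.46 in hypothalamus and was higher than hippocampus by 4.33 and striatum by 3.71, but lower than cortex by a difference of -1.07. Corticotropin-releasing hormone (Crh), which starts the stress response, was likewise higher than hippocampus (1.20) and striatum (0.79) and lower than cortex (-0.66). Its difference from the mean of the regions was 0.45 (SE 0.16, adjusted p = 0.0169), and it missed the threshold without hypothalamus array 2 (0.32) or array 4 (0.39), and with all whole-tissue groups in the fit. Substance P (Tac1) was higher than hippocampus by 3.04 and lower than striatum (-0.89).

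Of the 6 lower precursors, 3 belong to cortical interneurons or pyramidal cells: neuropeptide Y (Npy) at -2.55 (SE 0.17), cholecystokinin (Cck) at -1.81 (SE 0.31) and somatostatin (Sst) at -0.63 (SE 0.10). Npy is also an arcuate hunger peptide, and it read 1.80 to 3.05 in hypothalamus against 3.99 to 5.88 elsewhere. Cck read 4.16 to 5.75 in hypothalamus, within the striatum range of 3.81 to 6.29, against 7.70 to 8.35 in cortex and hippocampus. Enkephalin (Penk, -2.34, SE 0.12) was higher than hippocampus by 0.66 and lower than striatum by a difference of -4.96. Dynorphin (Pdyn) and the granin-like precursor Vgf were lower by -2.26 (SE 0.13) and -2.51 (SE 0.24) here but not in the G9a arrays, where the differences were 0.05 (adjusted p = 0.766) and 0.46 (adjusted p = 0.00504, higher). Sst differed by only -0.19 in the G9a arrays, where its hypothalamus arrays (4.11 to 4.67) overlapped the others (4.29 to 4.82). Of the 6 lower precursors, 3 were lower in both cohorts. Vip (0.25), Grp (0.63), Bdnf (0.17) and Nmb (-0.04) did not pass the test.

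**Figure D2:**
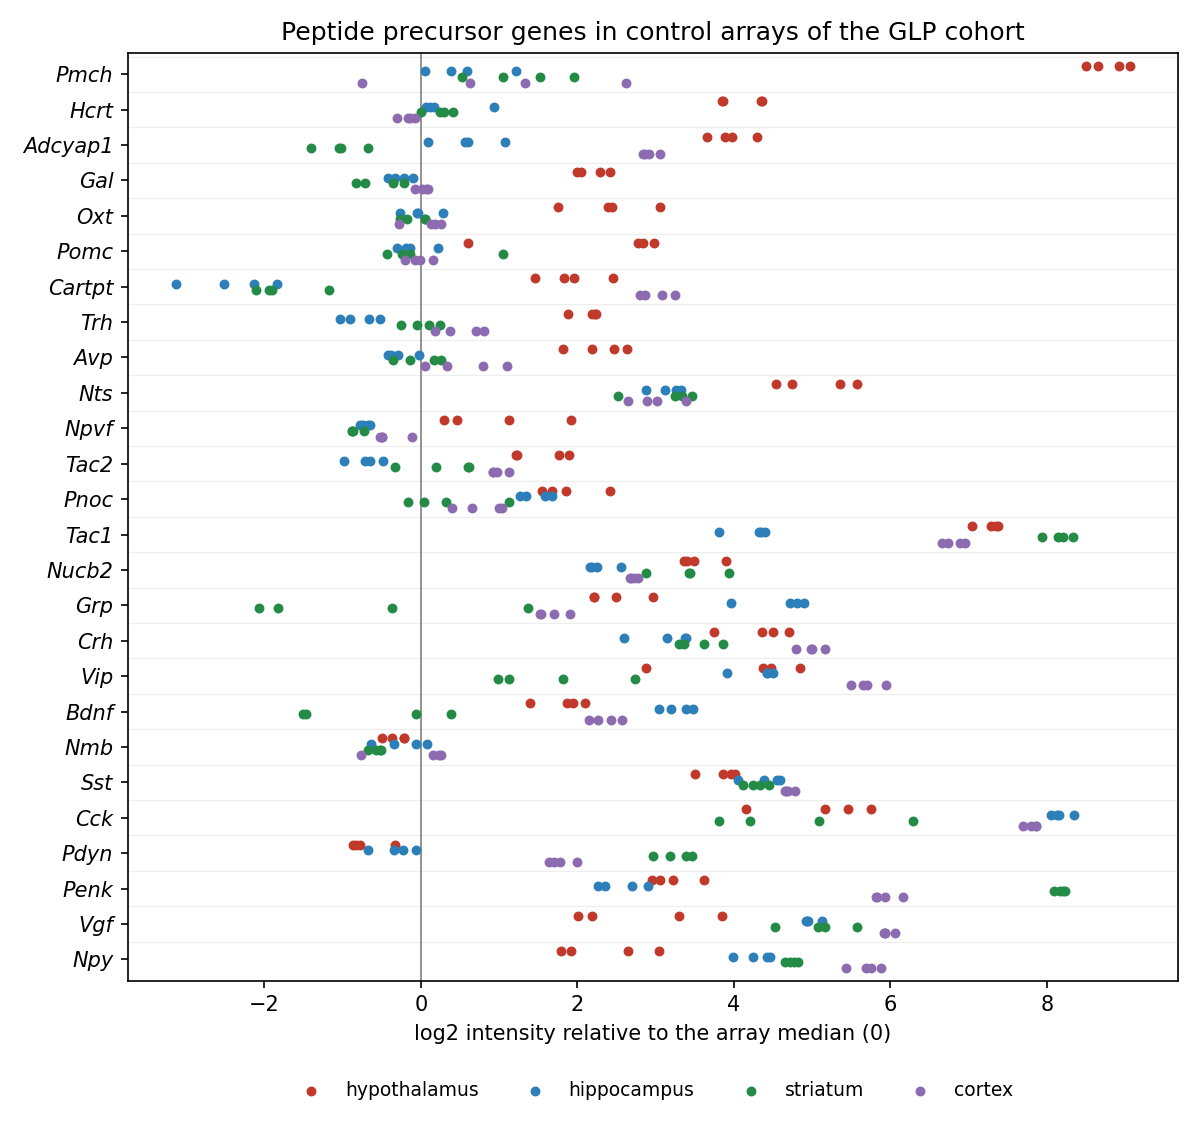
Log2 intensity relative to the array median (horizontal axis) of the 26 tested peptide precursors in each GLP control array (points), coloured by region and sorted by the difference of hypothalamus from the other regions. Pmch lies at 8.50 to 9.06 in hypothalamus and at most at 2.62 elsewhere, while Npy and Vgf have all 4 hypothalamus arrays below the 12 others.

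Some developmental transcription factors that keep a regional pattern in adult neurons separated hypothalamus from the other regions. Of 46 listed, 43 had a probe set, 22 of these lay below the array median in all 4 hypothalamus arrays, and 20 were tested. Of the tested ones 14 were higher and 3 lower (median 1.35); with no filter it was 21 and 8 of 43, with a median of 0.25. The defining hypothalamic factors Nkx2-1, Rax and Nr5a1 were among those below the array median in every hypothalamus array. Sim1, needed for paraventricular and supraoptic neurons, read 2.82, 3.18, 2.14 and 2.48 in hypothalamus, against -2.10 to -1.43, below the array median in each of the other 12 arrays. Its level was at least 6.30-fold higher, with a difference of 4.46 (SE 0.16, adjusted p = 5.85e-14) here and 4.13 in the G9a arrays. Otp, its partner in the same neurons, read 2.23, 1.40, 2.02 and 2.63, against -2.24 to -0.66 (difference 3.67, SE 0.17). Ebf3 (3.43, SE 0.28), Nhlh2 (3.41, SE 0.14), Lhx1 (3.33, SE 0.22) and Irx3 (3.15, SE 0.21) were likewise higher than every other region. Lhx1 read only 0.02 to 1.51 and Irx3 0.56 to 1.21 in hypothalamus, against at most -1.82 and -1.14 elsewhere. The size of these 2 differences thus rests on dim signals, and both genes passed the filter through the hypothalamus arrays alone. Nhlh2 acts in Pomc neurons and Lhx1 in the suprachiasmatic clock.

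Isl1, a factor of arcuate and of striatal neurons, was higher than hippocampus by 5.95 and cortex by 2.88 but differed from striatum by 0.32 with no call. Lhx9 was higher than striatum by 3.72 and cortex by 3.89 and stood at -0.40 relative to hippocampus with no call. Pou3f2, a partner of Sim1 and Otp, was higher by 1.12 (SE 0.10), but with the mean of its probe sets this was 0.08 and not called. Meis2 (-2.28, SE 0.15) and Dlx5 (-1.37, SE 0.12), both abundant in striatum, were lower, as was Arnt2 (-0.81, SE 0.09), the dimer partner of Sim1. Arnt2 was not called in the G9a arrays (0.15, adjusted p = 0.118).

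Receptors for hormones and peptides were called in both directions. Of 43 listed, 27 were tested; 12 were higher and 9 lower, against 36.3% and 39.9% of all genes. Their median was 0.25, and 0.03 without hypothalamus array 3; it was also under 0.25 without any 1 of the other hypothalamus arrays. Of the tested ones 11 were higher than every other region. The calcitonin receptor (Calcr), which binds calcitonin and with a partner protein amylin, read 2.16, 2.71, 1.94 and 2.48, against -2.88 to 0.05. No hypothalamus array overlapped the others, and the difference was 3.98 (SE 0.25, adjusted p = 1.04e-10). The orphan melatonin-receptor relative Gpr50 differed by 3.89 (SE 0.28), the cholecystokinin A receptor (Cckar) by 2.95 (SE 0.22) and the orphan receptor Gpr101 by 2.53 (SE 0.21). Oestrogen receptor alpha (Esr1), through which oestradiol acts on reproduction and metabolism, read 3.61, 3.91, 3.47 and 4.40, against -0.35 to 2.16 (difference 2.78, SE 0.21). The receptors for TRH (Trhr, 2.34), orexin (Hcrtr1, 1.88), neurokinin B (Tacr3, 1.79) and growth hormone (Ghr, 1.69) were higher too, with SE between 0.08 and 0.25.

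Other receptors were lower. The melanin-concentrating hormone receptor Mchr1 was lower by -1.57 (SE 0.09), and lower than each region, while its peptide Pmch was higher than each. The mineralocorticoid receptor Nr3c2, abundant in hippocampus, was lower by -1.91 (SE 0.08) and lay -3.12 from hippocampus. Sstr2, a somatostatin receptor, was lower by -1.50 (SE 0.10) here and not called in the G9a arrays (0.13). The leptin receptor Lepr did not pass the test (0.04, SE 0.21), and its 4 hypothalamus levels, -0.96 to 0.05, were near or below the array median.

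Some genes that set a neuron's transmitter differed strongly. Of 26 listed genes for amine and other transmitters, 17 were tested, of which 11 were higher and 5 lower (median 1.24). Over all genes 36.3% were higher and 39.9% lower. With no filter it was 11 and 8 of 24, with a median of 0.05, beside 4952 higher and 6772 lower of all 18193 genes. The balance of the list thus depends on the filter. Slc17a6 read 8.03, 7.97, 8.24 and 7.65, against 2.18 to 6.16, a difference of 3.47 (SE 0.30, adjusted p = 8.74e-09). Slc17a7 read -2.06, -2.12, -0.77 and -1.78, against -0.71 to 5.65. Its level was at least 13.1-fold lower (difference -5.39, SE 0.34), and each hypothalamus array lay below the array median. Hdc, which makes histamine and in brain is used by neurons of the posterior hypothalamus, read 3.34 to 3.51 against -1.19 to 2.04 (difference 2.86, SE 0.16); it was singled out after its values were seen. Gad2, an enzyme of GABA synthesis, did not pass the test (-0.16, SE 0.11). The other lower genes, also named after their values were seen, were Gad1 (-1.48), the vesicular GABA carrier Slc32a1 (-1.10), the nitric oxide synthase Nos1 (-0.73) and Dbh (-0.45). In the G9a arrays Slc32a1 and Nos1 were higher (0.57 and 0.70) and Gad1 was lower (-0.22).

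The dopamine transporter Slc6a3 was among the largest differences (5.09, SE 0.48, adjusted p = 2.94e-08; at least 12.4-fold), and the vesicular amine carrier Slc18a2 (3.43, SE 0.22), the aromatic amino acid decarboxylase Ddc (2.74, SE 0.13) and tyrosine hydroxylase (Th, 2.64, SE 0.33) were higher with it. These genes serve dopamine neurons of the hypothalamus itself, and of the midbrain just behind it. Slc6a3 read 1.25, 4.20, 5.63 and 3.43 in hypothalamus arrays 1 to 4, against -2.65 to -0.61, and Th read 1.89, 3.49, 3.97 and 2.98, in the same order of arrays. Foxa1 (4.42), a factor of midbrain dopamine neurons, read 0.75, 2.10, 2.16 and 1.07, and the receptor Ret (2.42) read 2.50, 3.85, 4.50 and 3.58, so array 1 was lowest for all 4. A list of 15 midbrain dopamine genes was chosen after values were seen, and therefore not counted. In it Nr4a2 was lower (-1.63) and Aldh1a1 was higher by 1.67. Of the list 6 genes lay below the array median in all 4 hypothalamus arrays. The midbrain factors En1 and Pitx3, among these 6, lay below it in every array. Foxa2, also among them, read -3.62, -2.36, -2.66 and -1.71, against at most -3.27 elsewhere. Chrna6, below the filter, read -0.69, 1.32, 1.92 and 0.75, against at most -0.54 elsewhere. The summed level of the list, as a mean over its 15 genes, was 0.59, 1.57, 1.76 and 1.24 in the hypothalamus arrays against -0.44 to -0.12 in the others. The part of midbrain tissue in these values was not tested.

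Genes of the machinery that processes and secretes peptides went both ways, and differently in the cohorts. All 20 measured genes of it were tested, with 6 higher and 8 lower (median -0.10) here, but 16 higher and 2 lower (median 0.64) in the G9a arrays, and 6 genes were called in opposite directions. Over all genes the shares were 36.3% and 39.9% here and 30.0% and 32.6% in the G9a arrays, so the GLP counts lie near the background. Higher in both were Baiap3 (3.10, SE 0.27; G9a 5.07), which acts in dense-core vesicle release, the granule protein Resp18 (2.82, SE 0.13; G9a 3.33) and the convertase Pcsk1 (2.11, SE 0.11; G9a 2.50). Resp18 read 7.06 to 7.54 in hypothalamus against 3.63 to 4.93. The granule membrane protein Ptprn read 3.39, 3.11, 4.40 and 4.02 against 5.36 to 5.71 (-1.79, SE 0.15), all 4 arrays below the 12 others, but was higher in the G9a arrays (0.39). Carboxypeptidase E (Cpe), near the top of the range in all arrays, did not pass the test (-0.13, SE 0.06).

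Imprinted genes, expressed from 1 parental copy, were more often higher than lower. Of 30 listed, 24 were tested; 16 were higher, all 16 of them also in the G9a arrays, and 4 were lower (median 0.69). Over all genes 36.3% were higher, and 2368 of 11969 were higher in both cohorts. Asb4, an arcuate gene, read 4.04, 3.91, 3.64 and 4.41, against -0.88 to 0.66, at least 15.1-fold higher (difference 4.42, SE 0.22). Magel2, a gene of the Prader-Willi region, differed by 2.40 (SE 0.25) and the Notch-like ligand Dlk1 by 2.35 (SE 0.31; G9a 4.84). Gnas did not pass the test (0.14). The lower members were Mest (-1.63), Cdkn1c (-1.58), Trappc9 (-1.54) and Rasgrf1 (-0.52), named after their values were seen.

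Outside these groups the largest differences included genes with no list. Sytl4, an effector of granule docking, read 5.38, 5.30, 4.40 and 5.31, against -2.73 to 0.41, at least 33.5-fold higher (difference 6.59, SE 0.20, adjusted p = 1.17e-14). Irs4, an insulin receptor substrate, read 5.63, 5.66, 5.39 and 6.33, against -1.66 to 1.75, at least 42.1-fold higher (difference 5.79, SE 0.39). Neither gene's groups overlapped, and the G9a differences were 5.94 and 8.01. The class I antigen gene H2-Q2 (4.25, SE 0.17), which has close paralogs so that its probes may read several, the secreted peroxidase Gpx3 (4.04, SE 0.23) and the phosphatase inhibitor Ppp1r17 (3.91, SE 0.16) were also higher than every region in both cohorts.

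Genes of cortical, striatal and hippocampal neurons were the counterpart. Cortical projection neuron genes were lower in 20 of 26 tested and higher in 4 (median -2.80), striatal ones lower in 21 of 25 and higher in 2 (median -2.25), and hippocampal ones lower in 17 of 21 and higher in 2 (median -1.26). Over the 3 lists in the same order, 20, 19 and 14 were lower in both cohorts. Ankrd63 had the largest fall of all, at -2.70, -3.24, -2.50 and -2.27 in hypothalamus against 2.77 to 6.64 elsewhere, at least 28.9-fold lower (difference -7.53, SE 0.16). Itpka, a kinase of dendritic spines, read -0.23 to 0.21 against 5.73 to 6.63, at least 63.4-fold lower (difference -6.10, SE 0.10, adjusted p = 3.08e-18). The groups lay far apart in both cases.

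Icam5, an adhesion protein of telencephalic dendrites, differed by -5.96 (SE 0.10), Crym, a thyroid hormone binding protein, by -6.37 (SE 0.19), Ankrd33b by -6.07 (SE 0.15), Rasl10a by -5.63 (SE 0.19) and the kinase Ptk2b by -5.09 (SE 0.17). Ppp1r1b (DARPP-32), the phosphatase inhibitor of dopamine-responsive neurons, differed by -7.73 from striatum and -2.65 from hippocampus. The sodium channel subunit Scn4b differed by -6.94 from striatum and -1.30 from hippocampus, and the factor Bcl11b by between -4.91 and -3.55 from each region. Among hippocampal genes the desmosomal Dsp differed by -7.52 from hippocampus and only -0.18, with no call, from cortex, and Wfs1 by between -3.07 and -2.41 from each. The few list members that were higher were Rspo1 (1.43), Rasgrf2 (0.93), Cux2 (0.58) and Rorb (0.38) of the cortical list, Isl1 and Tac1 of the striatal list, and Nrip3 (1.03) and Calb1 (0.59) of the hippocampal list; apart from Isl1 and Tac1 they were named after their values were seen. Rorb was no longer called without hypothalamus array 1 (0.33), 2 (0.31) or 3 (0.31), and with the mean of probe sets Rasgrf2 was not called and stood at -0.10.

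Immediate early genes, which neurons switch on with activity, were lower in 14 of 16 tested and higher in 0 (median -2.40, and -1.45 with the mean of probe sets), and 12 were lower than each region, against 23.8% of all genes. In the G9a arrays 14 of 17 were lower and 1, Fos, was higher. Egr3 read -0.28, 0.26, -0.21 and -0.19, against 6.20 to 7.34, at least 99.5-fold lower (difference -6.81, SE 0.09, adjusted p = 3.38e-19). Egr1 differed by -3.37 (SE 0.11) and Arc, a synaptic activity gene, by -3.55 (SE 0.26), both lower than every region in both cohorts. The uncalled members were Fos (-0.06, SE 0.25; G9a 1.05) and Npas4 (-0.86). Clock genes were lower in 10 of 15 tested and higher in 3 (median -0.75), against 39.9% and 36.3% of all genes. Npas2 stood at -2.39, Per1 at -2.10 and Cry2 at -1.66, all lower than each region. The 3 higher members were Per3 (0.70), Clock (0.56) and Nr1d2 (0.51), named after their values were seen. In the G9a arrays their differences were -0.12, -0.27 and 0.43. Clock read 5.19 to 5.50 in the G9a hypothalamus, below the 5.53 to 5.85 of the other G9a regions. With the mean of probe sets Nr1d2 was not called and stood at -0.09. No source used here states the time of day at which tissue was taken.

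Glial and vascular genes gave smaller shifts. Astrocyte genes were higher in 10 of 22 and lower in 3 (median 0.17): the matrix-binding protein Itih3 read 7.49 to 7.90 against 3.57 to 4.63 (difference 3.49, SE 0.13), angiotensinogen (Agt) differed by 2.51 (SE 0.16) and connexin 30 (Gjb6) by 1.46 (SE 0.08), whereas Fjx1 (-1.89), Aldh1l1 (-0.82) and the glutamate transporter Slc1a2 (-0.69) were lower. Microglial genes were lower in 9 of 18 and higher in 1, Tyrobp (0.67); Cd68 (-2.18), Tmem119 (-1.48) and the fractalkine receptor Cx3cr1 (-1.26) were lower than every region, and the G9a differences were -2.03, -1.37 and -1.34. Tyrobp was lower in the G9a arrays (-0.81). Oligodendrocyte genes had 7 higher and 11 lower of 25 (median -0.14), near the 36.3% and 39.9% over all genes, with Nkx6-2 higher by 1.78, Mag lower by -1.52 and Mbp at -0.07 with no call, and 1 higher and 4 lower in both cohorts. Endothelial and mural genes were lower in 13 of 20 here but in 7 of 21 in the G9a arrays. Over all genes 39.9% were lower here and 32.6% in the G9a arrays, so the G9a count lies near the background. Vwf stood at -1.97 here and at 0.16, with no call, in the G9a arrays. The 3 endothelial and mural genes that were higher, Slco1a4 (0.82), Higd1b (0.69) and Rgs5 (0.46), were not higher in the G9a arrays. Aldh1l1, Slc1a2, Tyrobp and these 3 were named after their values were seen.

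Genes of structures that border the hypothalamus were examined next. Thalamic and habenular genes were higher in 16 of 18 tested and lower in 0 (median 1.36), with 12 higher in both cohorts; calretinin (Calb2) read 6.01 to 6.41 against 1.13 to 4.98 (difference 2.91, SE 0.30). Slc17a6, Zic1, Tcf7l2 and Tac2 of that list are also on hypothalamic lists, and Calb2 is also made by hypothalamic neurons. Ciliated ependymal genes such as Tmem212 (3.49, SE 0.23) and Ccdc153 (3.02, SE 0.21) were higher, in a list of ependymal and tanycyte genes with 6 higher and 9 lower of 20 (median -0.29, but 0.13 with no filter and 0.00426 with a floor at the array median), in which Crym, a tanycyte gene that cortex also makes, was the lowest. Choroid plexus genes gave 3 higher (Calml4, Otx2 and Clic6) and 4 lower (Ttr, Folr1, Kl and Ace) of 10, and 12 of 20 lay below the array median in all hypothalamus arrays. Meningeal genes gave 3 higher (Ogn, Lum and Dcn) and 8 lower of 17. Over all genes 36.3% were higher and 39.9% lower. Calml4, Otx2, Clic6, Kl, Ace, Ogn, Lum, Dcn and Npas4 were named after their values were seen. The part of bordering tissue in the contrast was not tested.

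**Figure D3:**
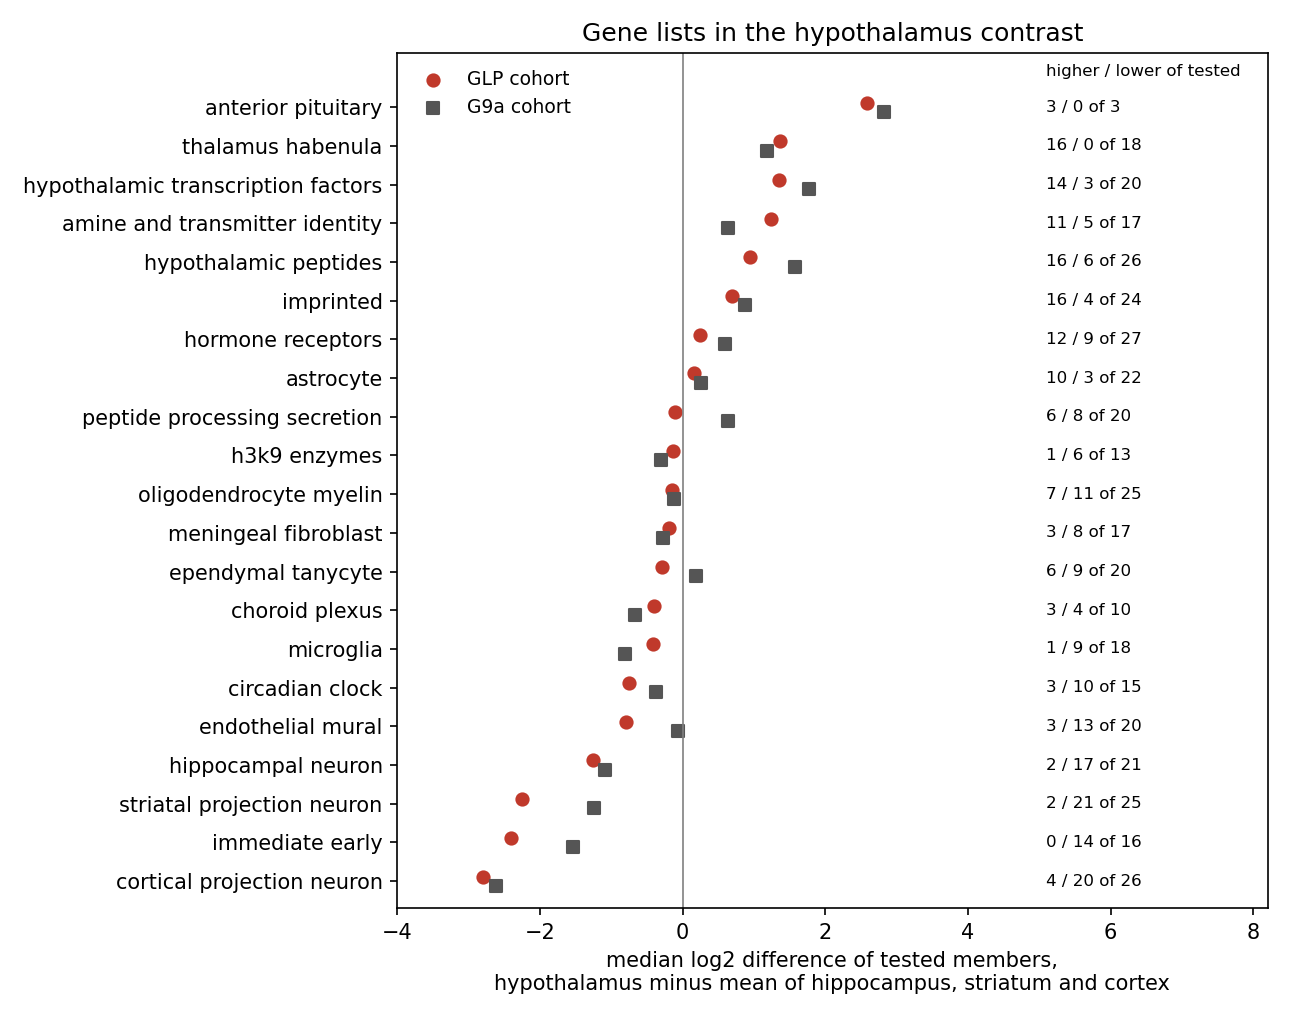
Median log2 difference, hypothalamus minus the mean of the other regions (horizontal axis), of the tested members of each tissue, cell type or pathway list, the midbrain list left out, in the GLP cohort (circles) and the G9a cohort (squares), with the GLP counts of higher and lower members at the right. Cortical projection neuron genes lie lowest (-2.80 in GLP), and peptide processing genes lie on opposite sides of 0, at -0.10 in GLP and 0.64 in G9a.

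Set against each region singly, the hypothalamus differed in 71.0% of genes from hippocampus, 68.3% from striatum and 76.8% from cortex. It had 3813 genes higher (31.5%) and 4775 lower (39.5%) than hippocampus, 3809 higher (31.5%) and 4450 lower (36.8%) than striatum, and 4845 higher (40.1%) and 4437 lower (36.7%) than cortex. There were 2537 genes (21.0%) higher and 2875 (23.8%) lower than every region. Of the genes higher than the mean of the regions, 132 (3.01%) were lower than at least 1 of them, as Tac1 and Crh were, and of the lower ones 176 (3.65%) were higher than at least 1, as Penk was.

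The G9a controls gave the same contrast in other mice. Of 12377 genes tested there, 3708 (30.0%) were higher and 4039 (32.6%) lower, 62.6% in all. Across the 11969 genes tested in both cohorts the differences correlated at 0.765, a value over genes, which are not independent. Of genes higher in the GLP arrays 54.7% were higher in the G9a arrays, as were 66.6% the other way round, and for lower genes the shares were 58.2% and 70.3%. Direction held more often among larger differences. Beyond 1 on the log2 scale 822 of 925 higher genes (88.9%) and 1249 of 1555 lower ones (80.3%) were called the same way in the G9a arrays, beyond 2 it was 141 of 145 and 334 of 340, and beyond 3 all 46 and all 96. Higher than every region in both cohorts were 911 genes, which is 36.3% of those in GLP and 63.4% of those in G9a, and 1049 were lower than every region in both (36.5% and 72.8%).

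**Figure D4:**
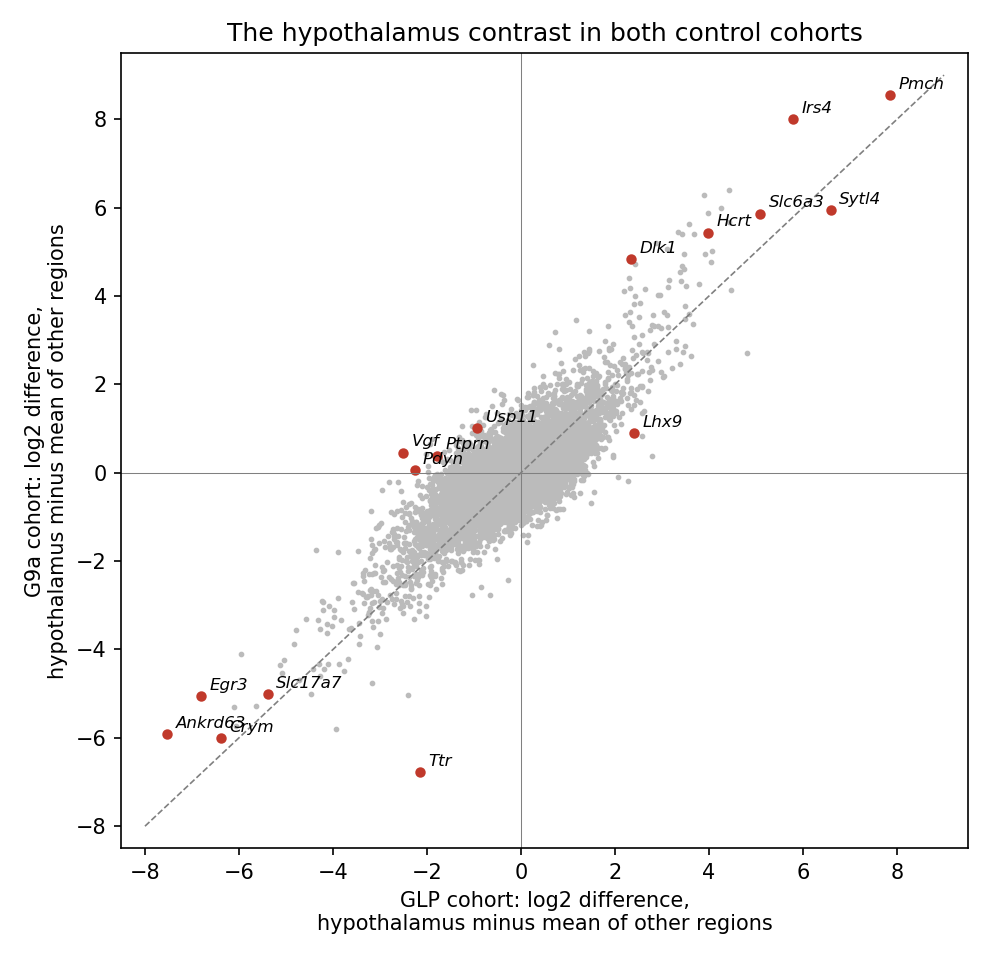
Log2 difference of hypothalamus from the mean of the other regions in GLP controls (horizontal axis) and G9a controls (vertical axis) for the 11969 genes tested in both (points), with the line of equality dashed and some named genes in red. Genes beyond 3 in the GLP cohort all keep their direction, while Vgf, Ptprn, Pdyn and Usp11 lie below 0 in GLP and above it in G9a.

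The difference between cohorts was itself tested for each gene, and 6625 of 12387 (53.5%) passed, 25.0% with a higher and 28.5% with a lower value in the GLP contrast. The 6 smallest p-values belonged to Usp11, Dpp6, Ngef, Ubqln2, Maged1 and Pld3. Usp11, a deubiquitinase, read 3.29, 3.13, 3.50 and 3.59 in the GLP hypothalamus against 4.04 to 4.57 in the other GLP regions, and 4.87 to 5.15 in the G9a hypothalamus against 3.71 to 4.51 in the other G9a regions. The groups lay apart in both cohorts, in opposite directions (-0.93 against 1.01). Ubqln2 (-1.20 against 0.61) and Maged1 (-0.76 against 0.78) also changed sign, Dpp6 was higher in the G9a arrays (1.68) and not called in the GLP arrays (called lower at -0.76 with the mean of probe sets), and Pld3 (-2.10 against -0.31) and Ngef (-3.02 against -1.60) were lower in both. In the G9a hypothalamus the female-matching arrays read 5.15 and 5.09 for Usp11 and the male-matching ones 5.01 and 4.87, all above the GLP hypothalamus. Cohort and the RNA gap cannot be told apart here. The part of sex, which also differs between the cohorts, was not tested. The enzymes of the study were not higher in hypothalamus in either cohort: Ehmt1 differed by -0.57 (SE 0.09) and Ehmt2 by -0.71 (SE 0.06) in the GLP arrays and by -0.16 and -0.30, with no call, in the G9a arrays. Among 13 tested enzymes and readers of H3K9 methylation, 6 were lower and 1, Cbx5 (0.74), was higher in the GLP arrays. Over all genes 39.9% were lower and 36.3% higher there.

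The 4 hypothalamus arrays varied among themselves in a few genes. Over 8350 genes above 2 in hypothalamus their median SD was 0.18, against 0.14 within the other regions, and 24 genes had an SD above 1, against 16 within the other regions. Sox11, Xaf1, Tmem87a, Snhg14 and Rpgrip1, singled out after their values were seen, were among the 24 and had an SD of 1.89 to 3.05 within the other regions too. Prolactin (Prl), a hormone of the anterior pituitary, read 1.44, 2.89, 3.08 and 5.01, against -1.63 to 1.43, and growth hormone (Gh) read -0.02, 2.73, 2.45 and 4.03, against -1.60 to 0.78. Array 4 was highest and array 1 lowest for both, and for Gh array 1 lay among the other regions. Of the 14 measured pituitary genes 10 lay below the array median in all 4 arrays, Cga read 1.39 in array 4 and -3.51 to -1.61 in the others, and Dlk1, the third tested member, is also an imprinted gene of the hypothalamus. In the G9a hypothalamus Prl read 2.83 in array 1 and -1.75 to -1.15 in the other 3, and Gh read 2.36 in array 4 and -2.89 to -1.07 in the other 3.

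Thalamic genes were lowest in array 4: the mean level of the list was 3.70, 3.73, 4.29 and 2.88, against 1.77 to 3.37 in the other regions. The troponin Tnnt1, a thalamic gene singled out after its values were seen, read 3.31, 3.40, 3.27 and 0.75. Shox2, a factor of thalamic neurons, read 3.77, 3.61, 4.87 and 1.86 against -3.13 to 2.78 (difference 4.81, SE 0.78), with 2 hippocampus arrays above 2, and -2.11 to 3.25 in the G9a hypothalamus. Transthyretin (Ttr), the main product of choroid plexus, read 6.98, 2.45, 9.18 and 3.36, against 4.51 to 9.89. It was called lower (-2.15, SE 0.92, adjusted p = 0.0417), but not, among other settings, without hypothalamus array 2 (-1.13) or array 4 (-1.44). Folr1, another choroid plexus gene, followed it in array 3 at -0.83, with -2.06 to -1.85 in the other 3. Pmch, by contrast, had an SD of 0.25 over the 4 arrays. The part of dissection in these differences was not tested.

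**Figure D5:**
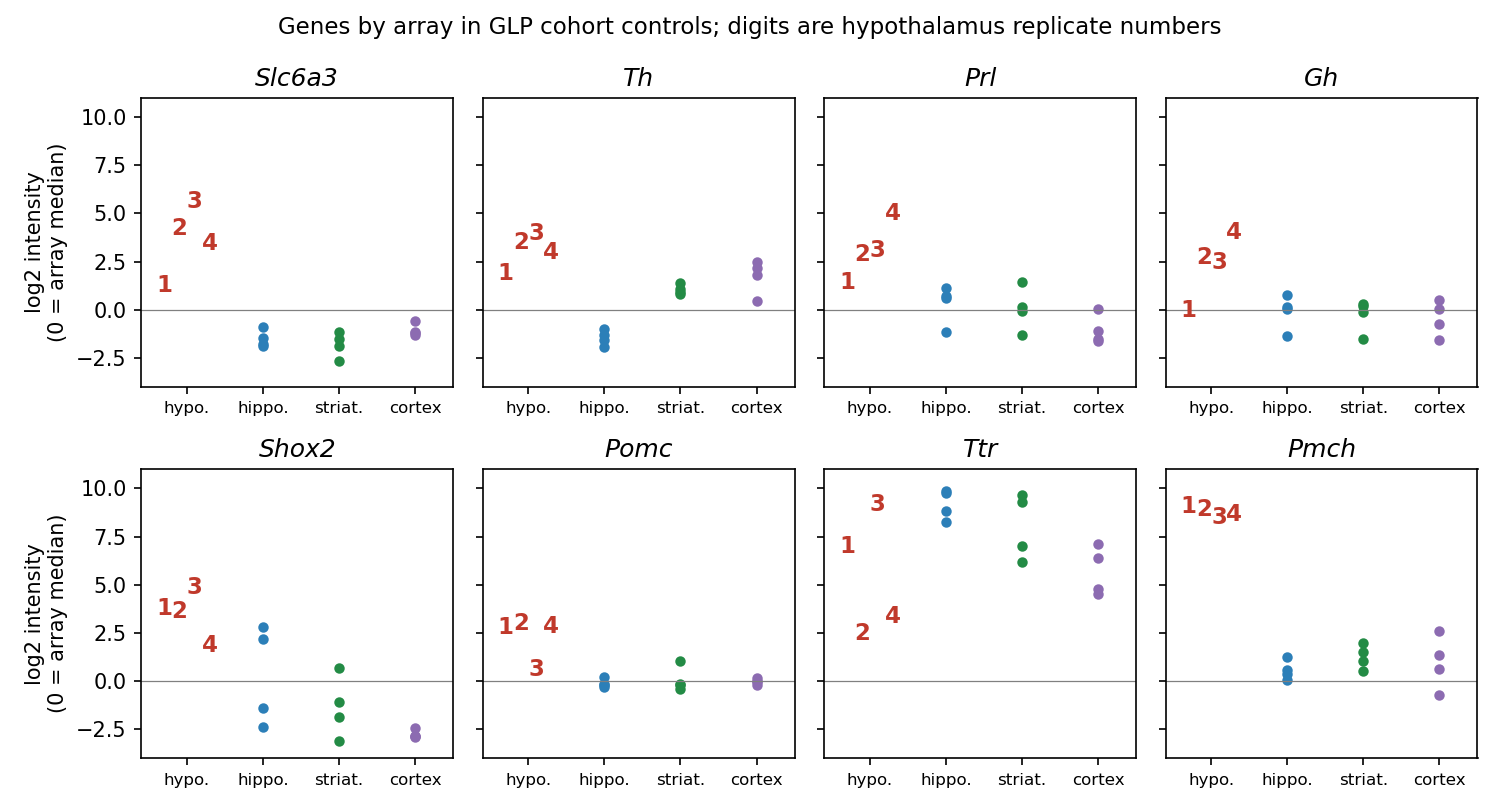
Log2 intensity relative to the array median (vertical axis) of 8 genes in GLP controls, by region; digits are the replicate numbers of the hypothalamus arrays and points are the other arrays. Slc6a3 and Th are lowest in array 1, Prl and Gh highest in array 4, Shox2 lowest in array 4 and Pomc lowest in array 3, while the 4 arrays lie close together for Pmch.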

How the data were processed

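Total RNA of 4 brain regions was amplified in 2 cycles and hybridised to 3′ expression arrays of 45101 probe sets, per the labels' protocols. The deposited values are intensities on a linear scale with a median of 1 on each array; the authors made them with GCRMA, per the submitters' processing notes, and no source used here states its version or which arrays it ran on together. The log2 of the deposited values was used without a floor. Per the file headers the columns carry the sample titles, which gave groups and replicate numbers; 1 G9a hypothalamus array is number 4 by title but mouse 5 by source name, and was kept as number 4.

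Of the probe sets, 34945 had exactly 1 symbol in the platform annotation, 932 had several, 9160 had none in that table and 64 were controls. Of 18193 genes each was read by the probe set with the highest mean. Testing required a log2 value above 0 in 4 or more arrays (2 or more for G9a, its smallest group), so a gene high in hypothalamus alone could pass through that group. The model was limma's (version 3.58.1, under R 4.3.3; lmFit, then eBayes with an intensity trend), with Benjamini-Hochberg adjustment over all genes tested and a threshold of 0.05. The 3 regions were weighted equally. Further contrasts set hypothalamus against each region, and a fit of all 29 controls tested the difference between cohorts. Adjusted p-values measure the spread between arrays, whose number limits the precision. No pair of arrays was a duplicate (highest correlation 0.998, at most 3.27% identical values).

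The fits were tried on simulated data, drawn independently for each gene and array, with only a small set of genes changed in hypothalamus. The GLP fit (11793 genes) found 96% of genes raised by a log2 difference of 1 and 76% of those raised by 0.5. Of its calls 4.69% were false. The G9a fit (12004 genes) found 96% and 86%, and 3.54% of its calls were false. In the real arrays most genes were called, so these shares of false calls do not carry over to them.

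The members and lists were chosen with earlier results of these data known, and lists are described by counts and medians without a test. The rule for named genes allowed 196: the 12 largest rises and 10 largest falls with separate arrays, leaving out 1 clone name, members of the peptide, factor and receptor lists, up to 4 called and 2 uncalled members of each other list, Ehmt1, Ehmt2, the 6 smallest p of the cohort difference and the 6 largest rises outside the lists. Genes outside it are marked where they appear. Alternatives were no filter, a filter at 2, a floor at the array median, quantile normalization, the mean of a gene's probe sets, all whole-tissue groups in the fit, no intensity trend, the replicate number as a block, and leaving out each array.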

Additional observations from a re-analysis of the deposited data

Results flagged for a closer look

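The hypothalamus contrast differed between the cohorts for 103 of 148 named genes, by the test of that difference (adjusted p under 0.05), with 86 lower in the GLP than in the G9a arrays and 17 higher. Over all genes the test passed for 53.5%. The values below are the GLP contrast minus the G9a contrast on the log2 scale. Among peptide precursors they were Hcrt (-1.46), Adcyap1 (-1.07), Oxt (-1.57), Avp (-1.93), Trh (-1.35), Pomc (-1.86), Cartpt (-1.31), Tac2 (-1.39), Pnoc (-1.04), Npy (-1.27), Vgf (-2.97), Penk (-1.32), Pdyn (-2.31), Sst (-0.436) and Vip (-1.12). All 15 were lower in the GLP contrast, whether the peptide was higher in hypothalamus, as Avp, or lower, as Npy. Among transcription factors they were Otp (-1.73), Ebf3 (-1.98), Nhlh2 (-0.937), Lhx1 (-2.11), Irx3 (-1.21), Lhx9 (1.36), Dlx5 (-0.483), Arnt2 (-0.953) and Foxa1 (-1.25). Among receptors they were Calcr (-1.89), Gpr50 (-2.40), Cckar (-1.07), Gpr101 (-1.31), Hcrtr1 (-0.894), Tacr3 (-1.20), Nr3c2 (-0.438), Sstr2 (-1.63), Lepr (1.17) and Ret (-2.30). Lhx9, read by different probe sets in the fits, and Lepr ran the other way from the rest of these. For transmitter genes the values were Hdc (-2.33), Slc18a2 (-1.24), Th (-1.52), Ddc (-0.483), Slc17a6 (-1.49), Gad1 (-1.25), Gad2 (-0.608), Slc32a1 (-1.67), Nos1 (-1.43) and Dbh (-0.444). For secretory and imprinted genes they were Baiap3 (-1.97), Resp18 (-0.502), Ptprn (-2.18), Asb4 (-1.98), Magel2 (-1.42), Dlk1 (-2.48), Gnas (-0.482), Mest (-1.06), Trappc9 (-1.57), Cdkn1c (-0.909) and Rasgrf1 (-1.23). For the remaining genes of large difference they were Irs4 (-2.22), H2-Q2 (-1.74), Gpx3 (-0.735), Ppp1r17 (-1.04), Ankrd63 (-1.61), Itpka (-0.798), Icam5 (-1.86), Ppp1r1b (-0.775), Usp11 (-1.94), Ubqln2 (-1.82), Dpp6 (-1.77), Ngef (-1.42), Maged1 (-1.53) and Pld3 (-1.79). For cortical, striatal and hippocampal genes they were Bcl11b (-0.483), Scn4b (-0.982), Dsp (-1.85), Wfs1 (-1.45), Rasgrf2 (-0.388), Rspo1 (-1.28) and Nrip3 (0.989). For activity and clock genes they were Egr3 (-1.75), Arc (-1.05), Egr1 (-1.02), Fos (-1.12), Nr4a2 (-2.10), Per1 (-1.18), Cry2 (-0.602), Clock (0.824) and Per3 (0.825). For H3K9 genes they were Ehmt1 (-0.409) and Cbx5 (0.53). For glial, vascular and neighbouring-tissue genes they were Ccdc153 (0.861), Ttr (4.62), Agt (-1.03), Mag (-1.31), Nkx6-2 (0.705), Mbp (0.27), Vwf (-2.13), Calb2 (-1.12), Prl (2.12), Aldh1a1 (0.868), Aldh1l1 (-0.684), Slco1a4 (0.796), Higd1b (0.679), Rgs5 (0.955), Tyrobp (1.48) and Tnnt1 (1.98), and Ttr and Tnnt1, which varied among the hypothalamus arrays, are among the few with a higher GLP contrast.

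In 592 combinations of a named gene and a GLP group, 32 single arrays stood far from the other 3 of their group for that group's range, about the 1 in 20 that chance gives. In hypothalamus array 1 this was Gpx3 at 4.65 against 4.13 to 4.17 and Mest at 0.531 against 1.14 to 1.23. In hypothalamus array 2 this was Pdyn at -0.324 against -0.862 to -0.776 and Gnas at 7.31 against 7.98 to 8.01. In hypothalamus array 3 this was Pomc at 0.598 against 2.78 to 2.98 and Sytl4 at 4.40 against 5.30 to 5.38. In hypothalamus array 4 this was Trh at 1.88 against 2.18 to 2.24, Gpr101 at 4.39 against 3.52 to 3.62, Rorb at 2.48 against 3.19 to 3.25 and Tnnt1 at 0.746 against 3.27 to 3.40. In hippocampus it was Hcrt at 0.935 in array 2, Tac1 at 3.81 in array 4, Vgf at 5.12 in array 2, Vip at 3.92 in array 4, Nos1 at 4.38 in array 4, Slco1a4 at 4.89 in array 2 and Nr1d2 at 6.96 in array 2. In striatum it was Npvf at -0.727 in array 4, Meis2 at 8.41 in array 2 and Nos1 at 3.20 in array 1. In cortex it was Npvf at -0.114 in array 2, Vgf at 6.06 in array 3, Nmb at -0.761 in array 2, Lhx1 at -2.11 in array 1, Dlx5 at 1.15 in array 4, Foxa1 at -2.01 in array 3, Shox2 at -2.45 in array 2, Rasl10a at 4.31 in array 2, Slc18a2 at -0.392 in array 4, Tmem212 at -2.60 in array 1, Ret at 0.639 in array 4 and Cbx5 at 4.66 in array 4.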

How the results depend on the processing

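No count of higher or lower genes over all genes tested moved by more than 1.5 times under any of 8 alternatives or without any array. Some counts within lists did. With the stricter filter higher peptides fell from 16 to 8 and higher transcription factors from 14 to 7. With no filter lower transcription factors rose from 3 to 8. Genes higher in the GLP hypothalamus ranged over 3543 to 4952 and lower ones over 3888 to 6772 under the alternatives, both extremes coming from filters that change how many genes are tested, and over 4037 to 4453 and 4627 to 4814 with 1 array left out. Quantile normalization shifted the median difference by 0.06 and turned the balance of calls, with 4734 higher and 4580 lower. Of 24 same-number pairs of GLP arrays 22 deviated together at a correlation over 0.1 (range -0.221 to 0.416). Their median was 0.247, against -0.0831 for pairs of other numbers, and 15 of 16 arrays correlated best with their own number. Because not every pair passed 0.1, numbers were not taken to mark animals. The main fit and its SE therefore leave out any pairing. In G9a 6 of 16 same-number pairs passed 0.1. With the replicate block the fit called 4468 genes higher and 4885 lower.

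List medians moved under both filters, the floor and the mean of probe sets, in some lists with the same number of members tested. With no filter they were 0.252 for transcription factors, 0.0514 for amine and transmitter genes, 0.131 for ependymal, -0.0378 for pituitary, -2.11 for immediate early and -0.0925 for H3K9 genes. With the stricter filter they were 0.446 for peptides, 1.01 for amine, -0.0452 for ependymal, 0.0589 for choroid plexus, -0.794 for microglial, -1.05 for endothelial, -3.10 for cortical, -2.61 for immediate early and -0.331 for H3K9 genes. With the floor they were 0.891 for transcription factors, 0.00426 for ependymal, -0.299 for meningeal, -2.55 for cortical, -0.894 for hippocampal and -1.92 for immediate early genes. With the mean of probe sets they were 0.891 for transcription factors, -3.15 for cortical, -1.45 for immediate early and -0.216 for H3K9 genes. Leaving out 1 array gave 0.907 to 1.44 for transcription factors, 1.01 to 1.26 for amine, 0.0306 to 0.308 for receptor, 0.106 to 0.24 for astrocyte, -0.34 to -0.103 for ependymal, -0.525 to 0.0131 for choroid plexus, -2.43 to -2.17 for immediate early and -0.19 to -0.104 for H3K9 genes. The ependymal, choroid plexus and pituitary lists therefore have no settled direction; the cause was not tested.

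Among 148 named genes, 7 lost a call under some setting (Ttr, Crh, Folr1, Rorb, Pou3f2, Nr1d2 and Rasgrf2), and Cpe, Dpp6, Gad2, Gnas, Grp, Mbp and Vip gained one. With the mean of probe sets Nr1d2 (-0.0865) and Rasgrf2 (-0.101) changed sign and were not called; the cause was not tested. No named gene was called in the opposite direction under any setting run.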

Other observations

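Some genes followed the replicate number through all 4 regions of the GLP controls; they were chosen after their values were seen. Sox11, a neuronal transcription factor, read 0.50 in hypothalamus array 1 and 4.79 to 5.99 in arrays 2 to 4, with -1.75 to -0.27 in array 1 and 4.03 to 5.86 in arrays 2 to 4 of the other regions. Tmem87a was likewise lowest in array 1 of each region. Xaf1 read -1.10 in hypothalamus array 4 and 3.40 to 4.63 in the other 3, and Snhg14, a noncoding RNA of the Prader-Willi region, read 3.76 in array 3 and 7.55 to 7.85 in the other 3, each repeated in hippocampus, striatum and cortex. Rpgrip1 read 5.03 in hypothalamus array 1 and 1.58 to 1.83 in the other 3, with the same array highest in every region. In the G9a controls array 2 matched a male in hippocampus and a female in hypothalamus, so there a number does not mark 1 animal.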
